A study of Homo sapiens with 8 samples.

Results

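The 240 genes described here were the gene models of human chromosome 19 whose symbol starts with ZNF, out of 18638 models in the count tables, and no measured value entered that choice. Nascent RNA was measured in them by factory-seq, a method that isolates RNA still held at transcription sites, in 8 libraries from DLD-1 and HCT116, both established colorectal cancer lines. Raw reads were counted over the span of each model, introns included. A further 263 ZNF models lay on other chromosomes, and 1113 other genes lay on chromosome 19.

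Each of the 4 groups held 2 libraries. The DLD-1 controls carried mAID-mClover-POLR2A(Tet-OsTIR1), an auxin-inducible degron on the largest subunit of RNA polymerase II with a doxycycline-inducible TIR1, and so did the DLD-1 auxin group, which had 24 h of doxycycline and then 500 µM auxin for 14 h. The HCT116 controls carried TOP2A-mAID, the same degron on topoisomerase II alpha, and the second HCT116 group was labelled TO2B-/--TOP2A-mAID. That second group is called the group labelled TOP2B-/- below, because its titles read control while its treatment field reads auxin, at the same dose and times, so the TOP2B genotype and auxin cannot be told apart there. Titles named asynchronous cells throughout, and the labels give neither whether untreated cells had doxycycline nor whether the HCT116 line was 1 clone. Nothing in the labels says that replicates were separate cultures, so p-values measure the spread between these libraries, which may be technical.

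ZNF genes of this chromosome encode mostly C2H2 zinc finger proteins, in which each finger folds around a zinc ion and successive fingers read successive bases of DNA. Many also carry a KRAB domain, which recruits the corepressor TRIM28 and through it the histone methyltransferase SETDB1, so that the bound site becomes heterochromatin. The family grew by tandem duplication, lies in long arrays of related genes, and is best known for silencing retrotransposons.

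The sequences bore the symbol out. Of the 240 members, 238 had a coding transcript under the same symbol in GENCODE, and a script found the C2H2 pattern a median of 12 times in their longest reading frame, with a maximum of 36 in ZNF208, then 34 in ZNF729 and 31 in ZNF91. A KRAB pattern was found in 204 of the 238 and was not found in 34. Some members had transcripts that were partly alike in sequence. Among 236 members with a transcript to compare, read-through models left out, 144 shared at least 1 run of 50 identical bases with another member and 20 shared such runs over at least 10% of the transcript. The median share was 0.264%. Repeats were not masked, so a shared run need not come from duplication of the gene. ZNF98 shared the most, 55.2% of its runs, chiefly with ZNF492. ZNF443 shared 36.1%, chiefly with ZNF799, and ZNF417 shared 35.6%, all of it with ZNF587. Reads from such stretches could have been given to either copy, since the sources used here leave the counting settings unstated. These shares are of transcripts, whereas reads were counted over introns too and introns were not compared. The share of reads left uncertain in these pairs is therefore not known. The models of 11 members also overlapped another model, among them ZNF559 with the read-through model ZNF559-ZNF177 and ZNF653 with ECSIT on the same strand, and ZNF540 with ZNF571 and ZNF790 with ZNF345 on opposite strands. For overlapping models the reads of either gene could not be told apart. In 8 members fewer bases were counted than the model spans.

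Promoters from RefSeq (GRCh38.p14, 250 bases before to 50 after the gene start) were found for 208 members. They held a median of 20 CpG dinucleotides, against 14 in 27305 promoters of all genes and 24 in 256 promoters of ZNF genes elsewhere. The letters CCGGAA, the core of the ETS motif, were present on either strand in 55.3% of member promoters, against 17.6% of all promoters and 43.0% of those of ZNF genes elsewhere. CCAAT stood in 52.4%, against 35.7% of all promoters and 41.4% of those of ZNF genes elsewhere. In the same order, GGGCGG stood in 67.3%, 44.6% and 59.4%, and TATAAA in 1.92%, 11.95% and 4.30%. TGACGTCA was found in 3.37%, 1.98% and 4.30%, and the 10-letter NRF1 motif in 2.40%, 1.36% and 3.125%, so both were more frequent in ZNF genes elsewhere. A match is a run of letters and not a bound site.

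Of these promoters, 6 are shown because the results turn on their genes. ZNF302 and ZNF304 were well transcribed in HCT116 and at or near background in DLD-1, ZNF69 and ZNF260 stood the other way round, ZNF776 had the largest fall after auxin, and ZNF266 the largest called fall in the group labelled TOP2B-/-. Capitals mark CpG dinucleotides, which numbered 28 in ZNF302 (chr19:34677428-34677727, plus strand), 20 in ZNF304 (chr19:57351021-57351320, plus), 8 in ZNF69 (chr19:11887532-11887831, plus), 20 in ZNF260 (chr19:36528222-36528521, minus), 13 in ZNF776 (chr19:57746565-57746864, plus) and 18 in ZNF266 (chr19:9435524-9435823, minus).
ZNF302: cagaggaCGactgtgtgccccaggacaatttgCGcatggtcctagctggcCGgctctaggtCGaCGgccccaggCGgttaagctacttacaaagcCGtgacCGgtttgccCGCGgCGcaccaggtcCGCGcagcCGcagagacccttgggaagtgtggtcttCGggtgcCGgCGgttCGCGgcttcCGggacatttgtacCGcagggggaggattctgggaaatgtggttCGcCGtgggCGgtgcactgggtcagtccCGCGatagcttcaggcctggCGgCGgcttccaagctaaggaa
ZNF304: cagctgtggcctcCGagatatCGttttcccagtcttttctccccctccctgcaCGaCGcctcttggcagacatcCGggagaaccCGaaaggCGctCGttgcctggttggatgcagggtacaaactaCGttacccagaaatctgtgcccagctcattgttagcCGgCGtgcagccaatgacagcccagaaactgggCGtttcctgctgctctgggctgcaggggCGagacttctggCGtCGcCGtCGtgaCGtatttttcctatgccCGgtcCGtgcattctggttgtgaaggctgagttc
ZNF69: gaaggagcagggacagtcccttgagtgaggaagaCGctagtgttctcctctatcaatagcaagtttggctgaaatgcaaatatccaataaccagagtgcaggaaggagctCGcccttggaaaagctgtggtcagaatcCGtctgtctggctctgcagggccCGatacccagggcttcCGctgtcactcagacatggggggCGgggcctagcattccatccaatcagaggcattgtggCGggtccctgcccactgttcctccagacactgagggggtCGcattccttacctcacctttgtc
ZNF260: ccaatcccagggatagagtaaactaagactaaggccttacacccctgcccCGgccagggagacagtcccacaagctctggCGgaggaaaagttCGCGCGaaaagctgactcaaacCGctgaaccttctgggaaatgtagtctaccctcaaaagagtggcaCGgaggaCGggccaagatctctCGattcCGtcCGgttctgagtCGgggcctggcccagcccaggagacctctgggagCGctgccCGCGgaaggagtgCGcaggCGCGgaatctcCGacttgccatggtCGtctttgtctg
ZNF776: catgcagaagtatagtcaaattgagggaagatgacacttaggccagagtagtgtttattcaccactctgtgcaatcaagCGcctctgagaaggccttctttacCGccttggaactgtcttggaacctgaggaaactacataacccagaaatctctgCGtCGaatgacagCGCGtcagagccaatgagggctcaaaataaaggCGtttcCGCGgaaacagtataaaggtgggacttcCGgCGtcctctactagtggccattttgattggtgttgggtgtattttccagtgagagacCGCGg
ZNF266: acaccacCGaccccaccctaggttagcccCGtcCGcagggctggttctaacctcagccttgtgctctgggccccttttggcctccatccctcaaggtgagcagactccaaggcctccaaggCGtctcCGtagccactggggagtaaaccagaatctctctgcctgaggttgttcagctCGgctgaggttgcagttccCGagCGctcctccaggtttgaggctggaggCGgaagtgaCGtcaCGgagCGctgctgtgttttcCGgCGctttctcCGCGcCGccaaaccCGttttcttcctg

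Depth and background differed between groups. Total counts were 62626875 and 36906755 in the DLD-1 controls, 14183633 and 10739622 after auxin, and between 32129400 and 36491540 in the HCT116 libraries. A background density was taken from 3066 models of at least 5000 bp outside the family, those in the lowest 20% of reads per kb in the controls of the other line. Reads at this silent-gene density over every counted base would make up 2.22% and 8.97% of the DLD-1 control libraries and 39.2% and 59.2% of the auxin libraries. In HCT116 the controls had 1.79% and 0.261% while the group labelled TOP2B-/- had 1.26% and 3.03%, so control replicate 2 stood apart with a density of 0.0834 reads per kb against 0.383 to 0.852 in the other HCT116 libraries. The epithelial markers EPCAM, CDH1, KRT8, KRT18 and CDX2 were at 42.2 times the silent-gene density or more in every control library, with EPCAM at 478.9 ± 0.161 CPM (read counts scaled to a common library total; SD, n = 2) in DLD-1 controls and 132.8 ± 8.06 in HCT116 controls. VIL1 was at 4.11 times or more in DLD-1 controls but at 1.33 and 3.15 in HCT116 controls, and CDX2 fell after auxin by 3.51 on the log2 scale (adjusted p = 0.00421, edgeR). Of the genes of other cell types, PTPRC stayed below the density in all 8 libraries and CD3E did not exceed 1.16 times it. PTPRC was at 0.326 and 0.315 times in DLD-1 controls and 0.317 and 0.338 after auxin. Even so, PTPRC was called higher after auxin (log2 fold change 2.59, adjusted p = 0.0320, edgeR), while CD3E was not called. The endothelial gene PECAM1 was at 0.920 and 1.05 times in DLD-1 controls and 4.84 and 2.51 after auxin (log2 fold change 4.29, adjusted p = 0.0130, edgeR). The liver gene ALB was at 4.55 and 1.57 times in DLD-1 controls and 2.53 and 1.78 after auxin (2.45, adjusted p = 0.0072, edgeR). In HCT116 controls ALB was at 0.785 and 6.29 times. RNA cannot check degradation of a tagged protein, and POLR2A itself had 217.9 and 148.9 CPM in DLD-1 controls and 193.7 and 138.4 after auxin. TOP2B RNA was still made in the group labelled TOP2B-/-, at 134.0 and 134.2 CPM against 187.9 and 186.3 in the controls. The family as a whole took 0.425% and 0.447% of the reads of DLD-1 controls, and 0.482% and 0.552% of those after auxin. In HCT116 its share was 0.382% and 0.379% for controls, against 0.358% and 0.374% for the second group. In bulk samples, fewer cells of a type and less RNA per cell cannot be told apart.

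Most members were transcribed in both lines. A member was taken as above background in a group when its reads per counted base reached at least 2 times the silent-gene density in both libraries. By this measure 167 of 240 members were above background in DLD-1 controls, which is 69.6% beside 61.1% of all models, and 168 in HCT116 controls, 70.0% beside 70.6%. Both lines shared 148 of them, 19 passed in DLD-1 and not in HCT116, 20 passed in HCT116 and not in DLD-1, and 53 passed in neither. The bar followed each library's own density. That was 1.22 and 2.89 reads per kb in DLD-1 controls, and 0.519 and 0.0834 in HCT116 controls. A level could thus pass in HCT116 and fail in DLD-1. In reads per kb scaled to the library's total (RPKM), the 20 had a median of 0.0803 in DLD-1 and 0.115 in HCT116. The 19 had 0.139 and 0.0171. Over all 18638 models, 10935 passed in both, 445 in DLD-1 alone and 2229 in HCT116 alone. Of members that passed in DLD-1, 88.6% passed in HCT116, beside 96.1% of all such models. Of members that failed in HCT116, 26.4% passed in DLD-1, beside 8.13% of all such models. Of members that failed in DLD-1, 27.4% passed in HCT116, beside 30.7%. The density of each line came from models low in the other line, and members were left out of those models. The shares of all failing models are therefore held down partly by that choice, and those of members beside them are not like for like. With 3 times the density the counts were 146 in DLD-1 and 158 in HCT116.

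Members formed 20 clusters when a gap of more than 500 kb began a new one, and 10 clusters of at least 5 members held 226 of the 240. At the 3' end of the chromosome, the cluster of 43 members from ZNF264 to ZNF446 (chr19:57191500-58489533) had 34 above background in DLD-1 controls and 35 in HCT116 controls. In the cluster of 23 from ZNF653 to ZNF791 (chr19:11483427-12629862), 21 and 19 passed. The pericentromeric cluster of 33 from ZNF101 to ZNF254 (chr19:19668153-24129967) was the quiet one, with 9 above background in DLD-1, 11 in HCT116 and 21 in neither. Its inner stretch from ZNF43 to ZNF730 held the longest run of neighbours above background in neither line, 10 members, among them ZNF208 and ZNF729 with the longest finger arrays. The next longest runs held 4 members each, ZNF506 to ZNF682 and ZNF486 to ZNF85 in the same cluster and ZNF415 to ZNF677 further along. In the cluster of 26 from ZNF565 to ZNF573 (chr19:36182060-37779590) the lines differed most in number, with 20 above background in DLD-1 and 14 in HCT116.

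**Figure D1:**
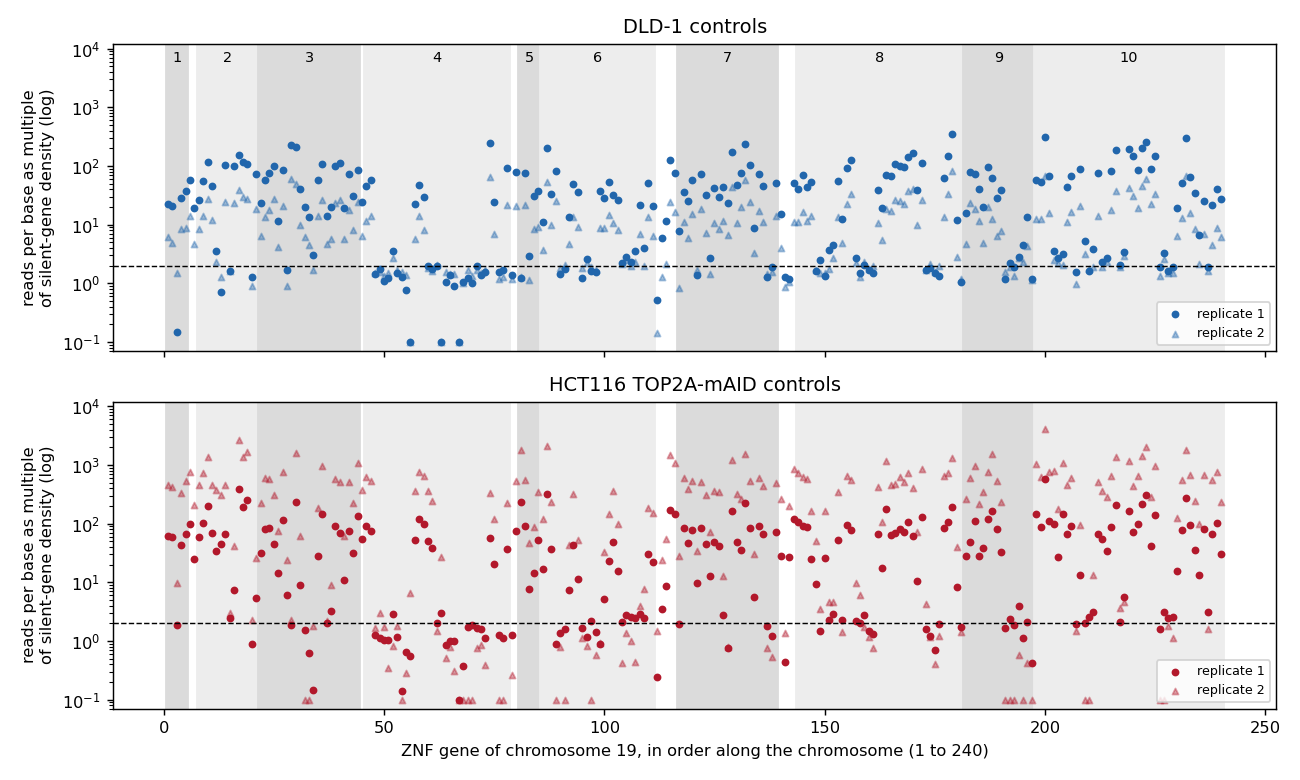
Reads per counted base of the 240 members in the control libraries, as multiples of each library's silent-gene density (log axis, values under 0.1 drawn at 0.1), in order along chromosome 19, with circles for replicate 1 and triangles for replicate 2. Shading numbers the 10 clusters of at least 5 members, the dashed line marks 2 times the density, and the fourth cluster holds the run of 10 members above background in neither line.

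Inside the quiet cluster the step from one gene to the next was steep. ZNF91, known for repressing SVA retrotransposons, had 11441 and 7045 reads in DLD-1 controls, which is 248 and 64.3 times the silent-gene density. Its neighbour ZNF730 had 58 and 147 reads, or 1.58 and 1.68 times. ZNF254, at the far end, had 10905 and 5998 reads. ZNF91 and ZNF254 thus stood over 20 times above the density in each DLD-1 control while none of the 10 from ZNF43 to ZNF730 reached 2 times it in both. ZNF93, known for repressing LINE-1 elements, was at 1.09 and 1.33 times in DLD-1 and at 1.06 and 1.73 times in HCT116, and so was not above background in either line. Some members had fewer reads than the silent-gene density allows for. ZNF85 and ZNF100 had 0 reads in both DLD-1 controls, where ZNF676 had 1 and 0, and these 3 stayed under 0.25 times the density in every DLD-1 library. In HCT116 controls ZNF100 had 69 and 97 reads, ZNF85 had 8 and 15, and ZNF676 had 0 in both.

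Members above background in neither line had a lower median number of CpG dinucleotides in their promoters than members above it in both. With promoters whose start lay within 100 bp of the model's start, the median was 22 over 108 members above background in both lines (range 9 to 35) and 17 over 38 members above background in neither (range 8 to 42). The letters CCGGAA were in 54.6% of the first and 63.2% of the second. Median model length was 18392.5 bp in the first and 27580 bp in the second. The ranges of CpG number overlapped almost entirely, and these are descriptions with no test, over genes that share clusters and ancestry.

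Levels per kb, which can be compared between genes, were led by ZNF761 and ZNF460 in DLD-1 and by ZNF460 and ZNF121 in HCT116. ZNF761 had an RPKM (reads per kb of counted length, scaled to the library's total) of 6.93 and 6.33 in DLD-1 controls and 3.02 and 3.04 in HCT116 controls. ZNF460 had 6.08 and 5.32 in DLD-1 and 8.97 and 9.31 in HCT116. ZNF544 had a mean of 5.50 ± 0.325 (SD, n = 2) in DLD-1, ZNF91 4.93 ± 0.153 and ZNF587 4.89 ± 0.220. In this order, ZNF460 and ZNF544 overlapped in their libraries, as did ZNF91 and ZNF587, whose reads cannot be fully told from those of ZNF417. ZNF121 had 6.15 ± 0.0217 in HCT116 and 3.04 ± 0.0808 in DLD-1. ZNF146, a protein made almost wholly of fingers, had 4.87 ± 0.0479 in HCT116, then came ZNF587 with 4.70 ± 0.137 and ZNF544 with 4.19 ± 0.0936. The median over all 240 members was 0.483 in DLD-1 controls and 0.440 in HCT116 controls, beside 0.449 and 0.506 over all models.

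Some members were near background in one line and among the strongly transcribed in the other. ZNF69 had 7482 and 4600 reads in DLD-1 controls and 26 and 5 in HCT116 controls, or 4.47 and 4.67 against 0.0293 and 0.00513 RPKM. ZNF260 had 1746 and 1278 reads in DLD-1 and 8 and 0 in HCT116. ZNF420, known as a repressor of p53 target genes, had 2342 and 1294 against 24 and 4. All 3 were far above background in each DLD-1 control and at no more than 2.25 times the density in each HCT116 control. ZNF284 with 0.485 ± 0.0492 against 0.00678 ± 0.00706 RPKM and ZNF433 with 0.436 ± 0.0593 against 0.0122 ± 0.0172 followed.

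The reverse pattern was led by ZNF302, with 1060 and 1295 reads in HCT116 controls and 13 and 32 in DLD-1 controls, where it stood at 1.22 and 1.26 times the silent-gene density. ZNF530 had 239 and 248 reads in HCT116 and 24 and 46 in DLD-1. ZNF708 had 1012 and 1135 against 92 and 203, and its neighbour in the pericentromeric cluster ZNF493 had 614 and 621 against 64 and 144. The DLD-1 values of these genes were at 1.22 to 2.35 times the background density, so that level was not separated from no transcription at this depth. The read-through model ZNF559-ZNF177 had 446 and 482 against 17 and 71 reads. ZNF304, a KRAB repressor, had 436 and 563 reads in HCT116 controls and 37 and 63 in DLD-1 controls. It was above background in DLD-1 by a small margin, at 3.53 and 2.52 times, while in HCT116 it was at 97.3 and 782.9 times. The tables of the lines hold separate experiments and no test was made between them.

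**Figure D2:**
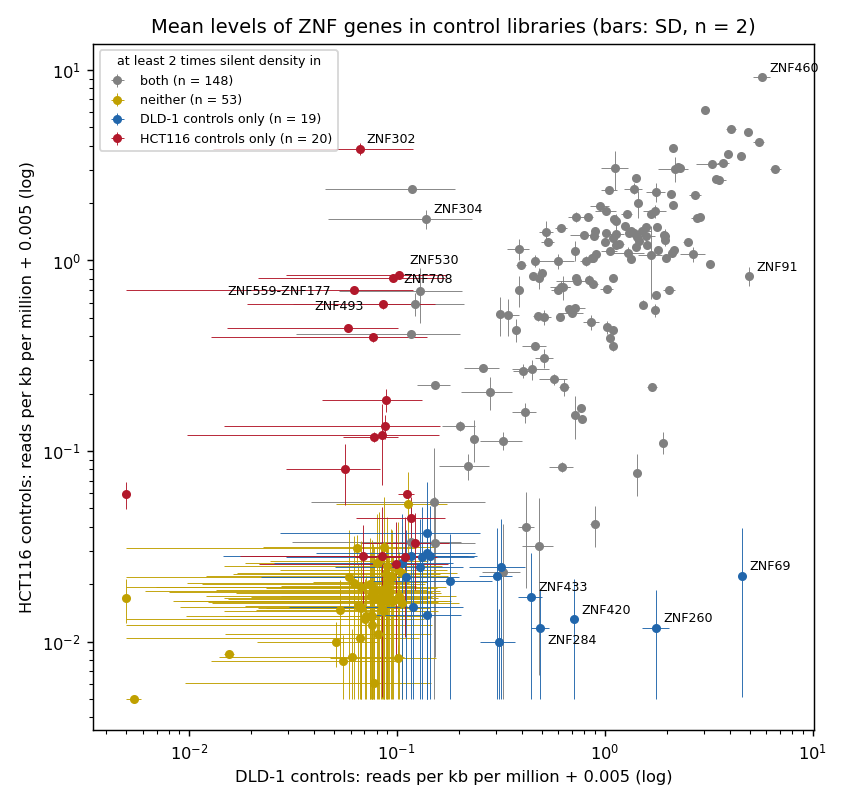
Mean level of each member in DLD-1 controls (x axis) and HCT116 controls (y axis), in RPKM plus 0.005 on log axes, with bars for the SD over 2 libraries that stop at 0.005. Colours give where a member was at least 2 times above the silent-gene density, and ZNF69 and ZNF302 lie farthest from the 148 members above it in both lines.

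After auxin in DLD-1, about as many members rose as fell, and which way a member went followed its starting level. Both groups carry the degron, and the comparison asks how nascent RNA differs once doxycycline and auxin have been given. The quasi-likelihood test of edgeR, with TMM scaling and Benjamini-Hochberg adjustment at 0.05 over 17625 genes, tested 236 members and called 83 higher and 78 lower, with 75 not called. Over all genes 67.3% were called, 32.2% higher and 35.0% lower, against 35.2% and 33.1% of the tested members, so these shares were near the background. The median log2 fold change of the members was -0.05, beside -0.06 over all genes. Scaling by library totals alone moved the median of all genes to 0.57 and that of the members to 0.58, with 109 members called higher and 34 lower, beside 42.8% and 19.2% of all genes. The counts rested on having both auxin libraries, with 1 higher and 20 lower without auxin replicate 1, and 2 and 25 without auxin replicate 2. Directions below are relative to the TMM scaling.

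Of the transcribed members more fell than rose, and of the silent ones more rose than fell, at shares near those of all genes of like status. Status was taken from HCT116 controls, which are not part of this comparison. Of 166 tested members above background there, 76 fell and 30 rose, with a median log2 fold change of -0.61. That is 45.8% lower, beside 46.3% of 13044 genes of that status, whose median was -0.62. Of 70 tested members not above background there, 53 rose and 2 fell, with a median of 2.48. That is 75.7% higher, beside 73.3% of 4581 genes, whose median was 2.53. The silent-gene background moved the same way, from 2.22% and 8.97% of reads in controls to 39.2% and 59.2% after auxin, and its part in the rises was not tested. In multiples of that density, the median of the 72 members not above background in HCT116 was 1.66 and 1.68 in DLD-1 controls. After auxin it was 1.63 and 1.67. Over all 5474 models of that status it was 0.987 and 0.991, then 1.02 and 1.01. That status and the silent models were both picked by low reads in HCT116 controls, with members left out of the silent models. Values near the density over all such models thus follow largely from that choice and are no yardstick for the members. Of the 83 members called higher, 26 reached at least 2 times the silent-gene density in both auxin libraries, and 9 of these had not done so in the controls. Of the 78 called lower, 35 were still at least 2 times above it. The shares of all called genes that did so were not counted, so these numbers say nothing particular to the members. Called or not, 37.5% of members reached 2 times the density in both auxin libraries, beside 27.4% of all models. With counts less the silent-gene density, 78 of 229 tested members were called higher and 44 lower, beside 27.8% and 32.1% of 14393 genes. The median was 0.57 over those members, beside -0.16 over all genes so tested. By status in HCT116 controls, it was -0.22 over members above background, beside -0.41 over all such genes. Over members not above background it was 3.80, beside 3.64 over all such genes.

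**Figure D3:**
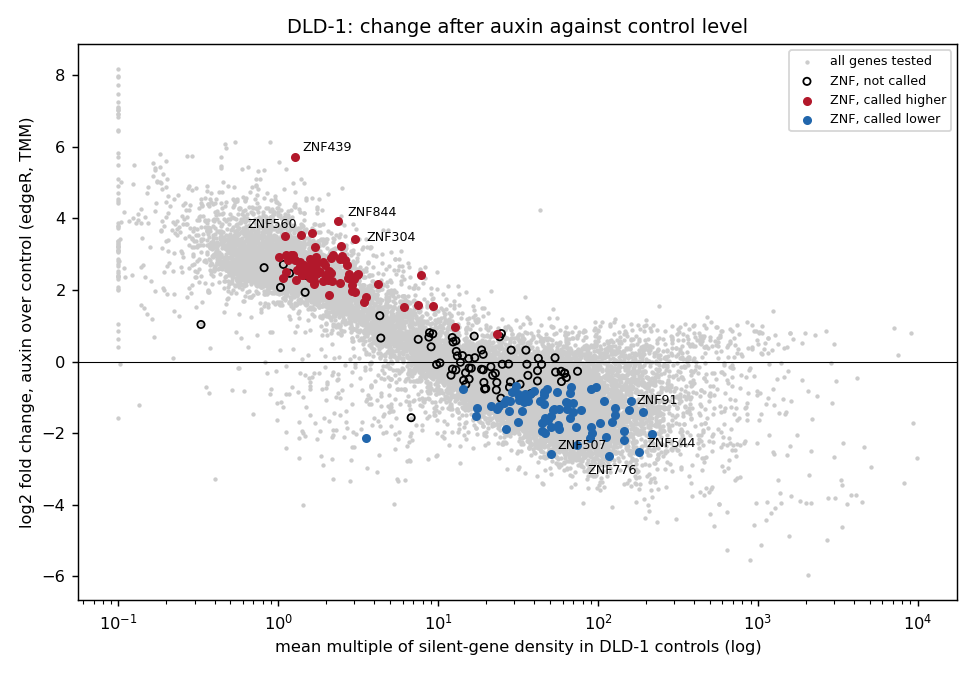
Log2 fold change after auxin in DLD-1 (y axis, edgeR with TMM scaling) against the mean multiple of the silent-gene density in DLD-1 controls (x axis, log), for all 17625 genes tested in grey and for the 236 tested members by call. Members lie within the cloud of all genes, higher at the density and lower far above it, with ZNF439 at 5.73 on top. The control libraries enter both axes.

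ZNF439 had the largest rise. It had 7 and 9 reads in controls, which is 0.112 and 0.244 CPM, and 212 and 146 reads after auxin, which is 14.9 and 13.6 CPM. The libraries of the groups did not overlap, and the multiples of the silent-gene density went from 1.66 and 0.898 to 12.6 and 7.58. Its log2 fold change was 5.73 ± 0.528 (SE; adjusted p = 0.0042, edgeR). The model spans 3463 bp (chr19:11866029-11869491, plus strand) between ZNF440 and ZNF69. The RefSeq gene start used for its promoter lies at -17303 bp from the model's start, that is upstream. The counted model may therefore cover only the downstream part of the gene. The transcript of ZNF439 shares 6.14% of its 50-base runs with other members, chiefly ZNF440.

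ZNF844, in the same cluster, had 48 and 65 reads in controls and 442 and 292 after auxin, and moved from 3.02 and 1.72 to 6.94 and 4.01 times the density (log2 fold change 3.92 ± 0.485). ZNF304 had 37 and 63 reads in controls and 262 and 205 after auxin, or 3.53 and 2.52 then 6.24 and 4.27 times (3.43 ± 0.579). In ZNF439, ZNF844 and ZNF304 both auxin libraries lay above both controls on the scale of background multiples as well as in CPM. ZNF560 with 3.58 ± 0.679, ZNF880 with 3.54 ± 0.650, ZNF812 with 3.50 ± 0.609, ZNF547 with 3.23 ± 0.622 and ZNF549 with 3.21 ± 0.741 completed the 8 largest called rises, with adjusted p from 0.0121 to 0.0227 in edgeR. ZNF812 ended at 2.44 and 1.57 times the density, and so was not above background after auxin by the measure used here. These 8 lay in 4 clusters, and ZNF304, ZNF547 and ZNF549 lay in that of the 3' end.

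The largest falls were of well transcribed genes. ZNF776 had 42.6 and 38.3 CPM in controls and 10.5 and 9.87 after auxin, a log2 fold change of -2.63 ± 0.220 (SE; adjusted p = 0.0042, edgeR). It went from 192.9 and 43.0 to 2.69 and 1.68 times the density. ZNF507, which lies alone outside the clusters, had 65.3 and 69.3 CPM in controls and 17.6 and 17.2 after auxin (-2.59 ± 0.170), and ended at 1.22 and 0.790 times the density. ZNF544 had 200.2 and 184.1 CPM and then 49.4 and 54.9 (-2.52 ± 0.174). Control and auxin libraries were far apart in each, and the reads left on ZNF507 did not exceed background. ZNF561 followed with -2.33 ± 0.240, ZNF226 with -2.20 ± 0.196, ZNF417 with -2.15 ± 0.226 and ZNF551 with -2.10 ± 0.261.

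ZNF780B was unlike the other falling genes. It had 199 and 103 reads in controls and 21 and 6 after auxin, a log2 fold change of -2.15 ± 0.621 (adjusted p = 0.0347, edgeR). It went from 5.85 and 1.27 to 0.154 and 0.0386 times the silent-gene density, so that it ended far below it. The call ended with library totals (-1.52) and with background-subtracted counts. Its neighbour ZNF780A had 302 and 137 reads and then 49 and 10, with -1.57 and adjusted p = 0.11 in edgeR, and ended at 0.462 and 0.0825 times. ZNF546, next to them, had 15 and 10 reads in controls and 16 and 5 after auxin. All 3 genes of this stretch (chr19:39997036-40090938) thus held fewer reads after auxin than the silent models of like length.

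**Figure D4:**
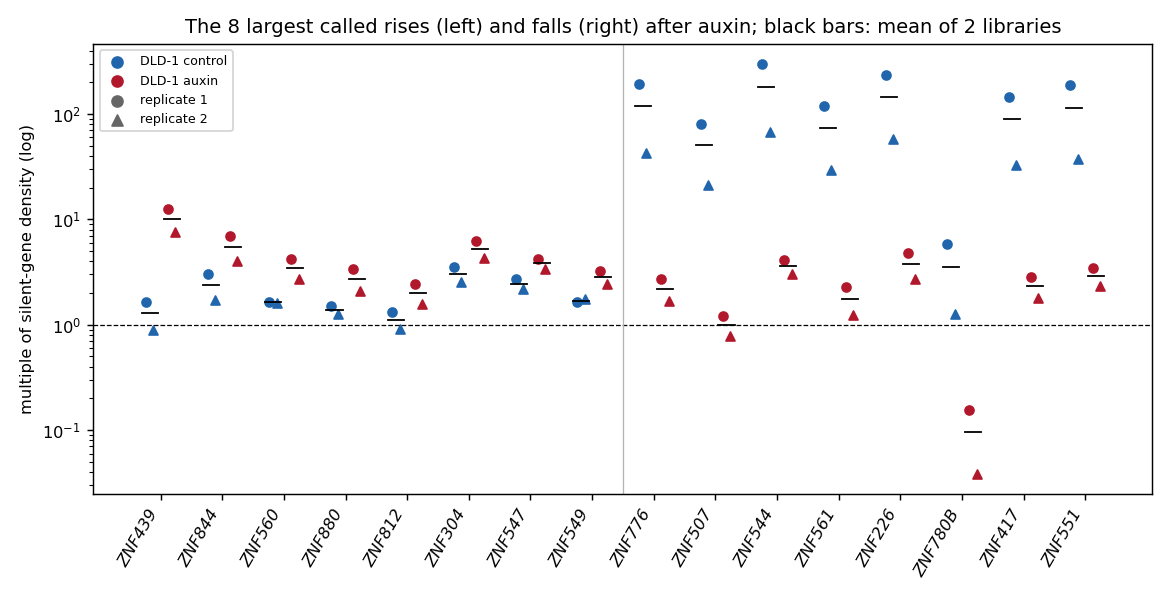
Reads per counted base as multiples of the silent-gene density (log axis) in each DLD-1 library for the 8 largest called rises and the 8 largest called falls, with blue for control, red for auxin, circles for replicate 1, triangles for replicate 2 and black bars for means of 2 libraries. The dashed line is the silent-gene density. ZNF439 rose to 12.6 and 7.58, whereas after auxin the falling genes lay between 0.790 and 4.77 times the density, apart from ZNF780B at 0.154 and 0.0386.

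Of the 13 members with roles known from other work, ZNF91 and ZNF274 fell, 8 rose, ZNF304 among them, and 3 were not called, beside 35.0% of all genes lower and 32.2% higher. Of genes not above background in DLD-1 controls, 78.7% were called higher. ZNF91 had 182.7 and 190.9 CPM in controls and 129.0 and 98.9 after auxin, with a log2 fold change of -1.35 ± 0.213 (adjusted p = 0.00967, edgeR). ZNF274, which brings SETDB1 to the 3' ends of ZNF genes, had 30.1 and 31.1 CPM and then 19.5 and 29.8 (-0.96 ± 0.253, adjusted p = 0.0296, edgeR). The call for ZNF274 ended with DESeq2 size factors (-0.85, adjusted p = 0.0553), library totals (-0.31, 0.35), a filter at mean CPM 5 (-0.55, 0.16) and background-subtracted counts (-0.59, 0.30), all in edgeR. Since CPM values do not carry the TMM factors, a fall on the fitted scale can be larger than that in CPM. Values for ZNF649 (-0.72 ± 0.297), ZNF580 (-0.56 ± 0.361) and ZNF420 (-0.79 ± 0.304) did not pass the test. ZNF93 (2.97 ± 0.798), the imprinted gene ZNF331 (2.97 ± 0.757), ZNF350 (2.26 ± 0.727), which encodes a partner of BRCA1, ZNF382 (2.78 ± 0.785), ZNF568 (2.65 ± 0.714), ZNF582 (2.79 ± 0.892) and ZNF671 (2.45 ± 0.656) were called higher, with adjusted p from 0.0278 to 0.0443 in edgeR. Those for ZNF350 and ZNF582 ended with DESeq2 size factors and with background-subtracted counts, and those for ZNF382, ZNF568 and ZNF582 in the fit over all 8 libraries. In multiples of the density these 7 were between 1.04 and 3.44 in controls and between 1.24 and 3.23 after auxin. On that scale the groups overlapped for ZNF350, ZNF582 and ZNF671, while in CPM none of the 7 overlapped. Lack of overlap in CPM was common, with 143 of the 240 members wholly higher after auxin and 73 wholly lower. The share over all genes was not counted. ZNF302, near background in DLD-1 controls, went from 0.208 and 0.867 to 4.87 and 7.82 CPM and from 1.22 and 1.26 to 1.62 and 1.72 times the density.

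Among genes at the highest levels in controls, ZNF761 fell by 2.02 on the log2 scale, ZNF69 by 1.94, ZNF146 by 1.499, ZNF460 by 1.41, ZNF260 by 1.32 and ZNF587 by 1.09, and ZNF121 had -0.70 with adjusted p = 0.0319 in edgeR. For ZNF121 and ZNF587 the direction turned with background-subtracted counts, to 0.39 and 0.02. The calls for ZNF121 and ZNF587 also ended with library totals, and those for ZNF260 and ZNF460 with background-subtracted counts. Members with a KRAB pattern had 74 called higher and 65 lower of 200 tested, with a median log2 fold change of 0.11. Those without had 7 and 13 of 34, with a median of -0.43. By number of fingers the medians were 0.08 for 119 tested members with 12 or fewer and -0.08 for 115 with more. By cluster, the median ran from -0.93 in that of ZNF414 to ZNF846, where 8 of 13 tested fell beside 35.0% of all genes, to 2.34 in the quiet pericentromeric one, where 18 of 30 rose and 5 fell, beside 32.2% of all genes higher and 78.7% of those not above background in DLD-1 controls. ZNF genes on other chromosomes had a median of -0.81, with 44 higher and 134 lower of 255, and other genes of chromosome 19 had 0.25. In DLD-1 controls 77.6% of the ZNF genes elsewhere were above background against 69.6% of members. Differences between these lists were not tested.

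In HCT116, few members differed between the group labelled TOP2B-/- and the controls. This comparison asks what loss of TOP2B, with or without loss of TOP2A, does to nascent RNA. The edgeR test called 3 of 221 tested members lower and 0 higher, beside 3.41% of 15273 genes called, 1.66% lower and 1.75% higher. DESeq2 called 9 higher and 17 lower, beside 9.65% and 11.9% of all genes, 21.6% together. At an unadjusted p under 0.05 in edgeR there were 10 higher and 26 lower. The share of all genes at that threshold was not counted, so these numbers say nothing particular to the members. Without either library of the group labelled TOP2B-/- 0 members were called, and without control replicate 1 there were 3 higher and 7 lower. The median log2 fold change was -0.00 over the members and 0.03 over all genes. Among 167 tested members above background in HCT116 controls it was -0.09, beside -0.02 over 12855 genes of that status, and among 54 not above background it was 0.76, beside 1.06 over 2418. The low silent-gene density of control replicate 2 moved with that difference between the classes, and its part was not tested.

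ZNF266 had the largest called fall. It had 790 and 869 reads in controls, against 316 and 350 in the group labelled TOP2B-/-, or 23.8 and 23.8 CPM against 9.10 and 10.9. The groups were far apart and each replicate pair was close, with a log2 fold change of -1.28 ± 0.126 (SE; adjusted p = 0.0320, edgeR). ZNF440 had 37.4 and 36.1 CPM in controls, against 22.3 and 24.3 in the second group (-0.68 ± 0.0725, adjusted p = 0.0355, edgeR). ZNF83, the third, had 212.5 and 208.2 CPM and then 170.7 and 172.9 (-0.32 ± 0.0373, adjusted p = 0.0412, edgeR). Its change was small but exceeded the spread between libraries, at a depth of 5555 to 7599 reads. With no count filter it was not called (-0.32, adjusted p = 0.0544, edgeR), and none of the 3 was called with the replicate number as a block or in the fit over all 8 libraries. ZNF266 and ZNF440 lie in different clusters, at chr19:9412426-9435578 and chr19:11814292-11835201. In DLD-1 after auxin ZNF266 fell (-1.15 ± 0.194, adjusted p = 0.0112, edgeR), while ZNF440 had 0.11 ± 0.199 and ZNF83 had -0.08 ± 0.149.

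**Figure D5:**
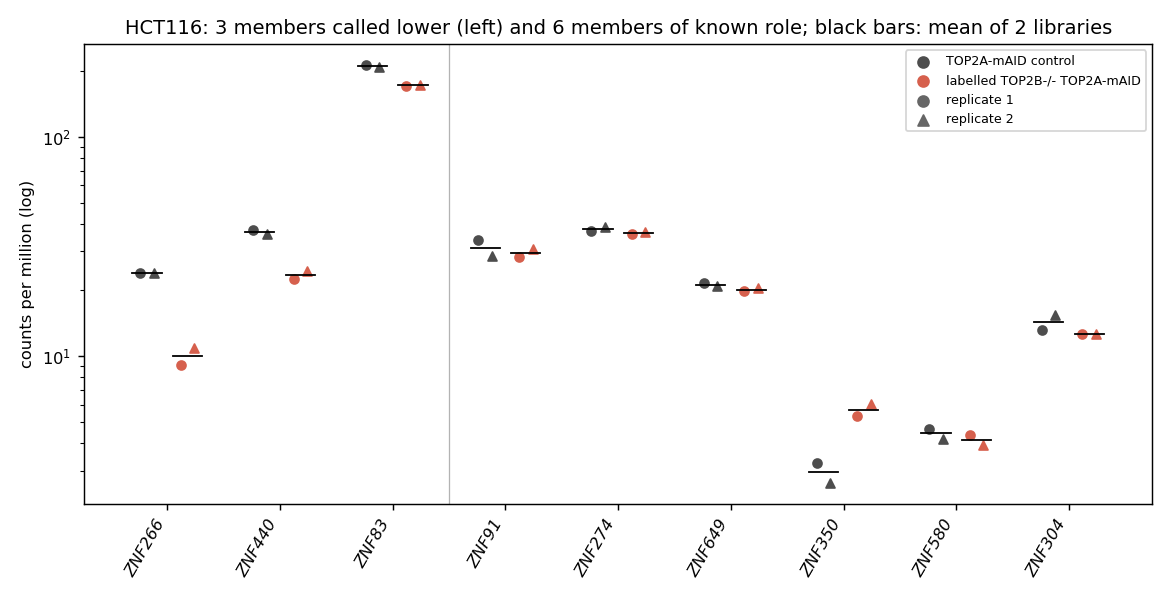
CPM (log axis) in each HCT116 library for the 3 members called lower and for 6 members with known roles, with black for TOP2A-mAID controls, red for the group labelled TOP2B-/-, circles for replicate 1, triangles for replicate 2 and black bars for means of 2 libraries. The groups are apart for ZNF266, ZNF440 and ZNF83, and ZNF350 is higher in both libraries of the second group without passing the test.

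The largest values in the other direction did not pass the test. ZNF585A had 68 and 68 reads in controls, against 158 and 171 in the second group, a log2 fold change of 1.31 ± 0.213 (adjusted p = 0.0658, edgeR), and its near copy ZNF585B had 352 and 355 against 471 and 462 (0.44 ± 0.113, adjusted p = 0.13, edgeR). These genes lie side by side and their transcripts share 14.1% and 19.5% of their 50-base runs with each other. ZNF350 had 108 and 96 reads against 185 and 193 (0.92 ± 0.202, adjusted p = 0.10, edgeR). ZNF585A and ZNF585B are named here after their values were seen. Of the other members with known roles, ZNF91 had -0.09 ± 0.0949, ZNF274 -0.09 ± 0.0668, ZNF649 -0.10 ± 0.0848, ZNF304 -0.21 ± 0.147 and ZNF580 -0.12 ± 0.188, none of which passed. The genes at the highest levels varied little as well, with values of -0.16 ± 0.0573 for ZNF460, 0.05 ± 0.0455 for ZNF121, 0.14 ± 0.0454 for ZNF146 and -0.00 ± 0.0373 for ZNF544. ZNF302, transcribed in HCT116 and near background in DLD-1, had 31.9 and 35.5 CPM against 34.1 and 35.9 (0.03 ± 0.0948).

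The partners through which KRAB proteins act were measured in a list of 25 corepressor and heterochromatin genes, all 25 above background in both lines' controls. After auxin in DLD-1, 17 fell and 0 rose beside the 35.0% of all genes that fell and 54.0% of the genes above background in DLD-1 controls, to which all 25 belong. The median log2 fold change was -1.12, beside -0.83 over genes of that status. No member of the list rose at an unadjusted p under 0.05 either (0 of 25), and DESeq2 called 0 higher and 17 lower. The share of all genes at that p was not counted, and DESeq2 called 12188 of all genes in either direction. In the edgeR test 6.47% of genes of that status were called higher, so 0 of 25 says little particular to the list. With background-subtracted counts the median was -0.16, beside -0.54 over genes of that status and -0.16 over all genes. SETDB1 had 109.4 and 93.8 CPM in controls and 25.5 and 34.7 after auxin (-2.40 ± 0.227, adjusted p = 0.00421, edgeR). TRIM28, the corepressor that binds KRAB domains, had 156.0 and 119.7 CPM and then 148.6 and 108.5 (-0.74 ± 0.275, adjusted p = 0.0635, edgeR), and did not pass. SMARCAD1 had -2.60, MPHOSPH8 -1.86 and ATF7IP -1.76, each past the test, while the heterochromatin protein gene CBX5 had 0.29 and was not called. In HCT116 the edgeR test called 0 of the 25, beside 3.41% of all genes, with TRIM28 at -0.37 ± 0.145 and SETDB1 at -0.00 ± 0.0585. By DESeq2 1 was higher and 6 were lower, beside 9.65% and 11.9% of all genes. At an unadjusted p under 0.05 in edgeR 3 were higher and 4 lower, and the share of all genes there was not counted.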

How the data were processed

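Factory-seq libraries of DLD-1 and HCT116 cells (4 groups, n = 2 each) were grouped from their labels. The authors deposited raw read counts per RefSeq gene model, 1 table per cell line, counted over the span of the model. The submitters' processing notes name STAR, DESeq2 and hg38, without roles or versions, and the sources used here give neither strand use nor counting settings. The authors' tables of their own comparisons (fold changes, p-values and scaled values) were not used. The accompanying paper concerns another experiment and served for style alone.

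A separate fit for each line used its 4 libraries and all genes, with edgeR 4.0.16 in R 4.3.3 (filterByExpr, TMM, quasi-likelihood test, two-sided, Benjamini-Hochberg at 0.05), with 2 residual degrees of freedom, and the script was tested on simulated data. The filter dropped 4 members in DLD-1 and 19 in HCT116. Alternatives were DESeq2 1.42.0, other scalings and filters, background subtraction (silent-gene density times counted length, floor 0), a joint fit, leaving out each library and the replicate number as a block. No column of per-sample values was left unmapped.

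The members and lists were chosen with earlier results of these data known. Named members were the 8 largest called changes each way, the 5 highest levels per line, the 5 largest differences each way between lines among members above background in 1 line, and a list of known genes. Finger and KRAB patterns were set by script on GENCODE reading frames matched by symbol, after looking at sequences. Depth limits genes of few reads, and PCR reads without molecular identifiers are not independent molecules.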

Additional observations from a re-analysis of the deposited data

How the results depend on the processing

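In DLD-1, the median log2 fold change of the members, -0.05 in the fit reported, was 0.043 with DESeq2 size factors, 0.042 in DESeq2, 0.58 with library totals, 0.31 after a filter at mean CPM 5, 0.19 in the fit over all 8 libraries and 0.57 with background-subtracted counts. Members called lower, 78 in the fit reported, were 34 with library totals, 43 at mean CPM 5 and 44 with background-subtracted counts. ZNF83 changed direction, to 0.56 with library totals and 0.96 with background-subtracted counts, and so did ZNF121 (0.39) and ZNF587 (0.018) with background-subtracted counts. Leaving out 1 library gave 1 to 93 members called higher, 20 to 81 lower, 2393 to 12732 of all genes and a median of -0.079 to 0.058. Without auxin replicate 1 there were 1 higher and 20 lower, and without auxin replicate 2 there were 2 and 25. With 1 library left in a group, its spread was taken to be that of the other group.

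In HCT116, the filter at mean CPM 5 gave 2 members higher, 6 lower and 1350 of all genes, DESeq2 gave 9, 17 and 3295, and background-subtracted counts gave 8, 15 and 2289. The fit over all 8 libraries called 0 members lower and 5 of all genes. Leaving out 1 library gave 0 to 3 members higher, 0 to 7 lower, 0 to 2519 of all genes and a median of -0.13 to -0.0099. Without TOP2B-/- replicate 1 or 2 no gene was called, and without control replicate 1 there were 3 higher and 7 lower.

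Deviations of same-numbered libraries correlated across genes at 0.58 in DLD-1 and -0.83 in HCT116, and the labels give a number alone. The replicate block gave 93 members higher, 79 lower and 12963 of all genes in DLD-1, and 0 members lower and 0 of all genes in HCT116. Crossed numbers in HCT116, chosen after seeing the data, gave 4 members higher, 5 lower and 1799 of all genes. For the named members, 865 of 1009 values under an alternative kept direction and side of the threshold, 93 lost and 13 gained a call, and 34, called in neither fit, changed sign. The causes of these shifts were not tested.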
